A study of Homo sapiens with 6 samples.

Results

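The JUN and FOS family genes examined here are JUN, JUNB, JUND, FOS, FOSB, FOSL1, FOSL2 and BATF3. They were chosen by gene name and are 8 of the 62754 genes listed for each library. Of the 8, 7 passed a filter on low values and are among the 14294 genes tested. The cells are HUDEP-2, a human erythroid progenitor line immortalised with viral oncogenes that doxycycline keeps on, and their poly(A) RNA was sequenced. The MEN1 knockdown group (n = 3) received a lentiviral shRNA, named MEN1sh2 in the sample titles, and the control group (n = 3), labelled WT, received a non-targeting shRNA. They are called knockdown and control libraries below. All 6 cultures were described as biological replicates. They shared medium with erythropoietin, stem cell factor, doxycycline and the glucocorticoid dexamethasone, puromycin at 2 µg/ml for 48 h starting 24 h after infection, and harvest 72 h after transduction. A single hairpin was used, so loss of MEN1 and off-target effects of that hairpin cannot be told apart.

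The proteins of this family form AP-1, a group of dimeric transcription factors that hold DNA with a basic leucine zipper. JUN proteins can pair with each other, whereas FOS proteins bind DNA only with a JUN partner. AP-1 dimers recognise the sequence TGACTCA or the related TGACGTCA, and several of the genes are switched on within minutes of a stimulus, for which reason they are called immediate early genes. Menin, the product of MEN1, is best known as a subunit of MLL histone methyltransferase complexes, and it also binds JUND and holds back JUND-driven transcription. Levels are given in TPM, a measure of transcript abundance that is scaled for transcript length and sums to 1000000 in each library, so that genes can be compared within a library.

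Promoter letters are shown first for the members whose start regions hold an AP-1-type sequence. RefSeq promoters (GRCh38.p14, 250 bases before to 50 after the start) were matched by symbol for 6 of the 8 genes. FOSL1, whose TPM fell, and BATF3 had no promoter to match, so their start regions were not searched. The 60 bases that end 55 bases before the start are printed for FOS, FOSB and FOSL2, the 3 genes whose TPM rose in the comparison below. Capitals mark TGACGT, the left part of TGACGTCA.
FOS, chr14:75278714-75278773, plus strand: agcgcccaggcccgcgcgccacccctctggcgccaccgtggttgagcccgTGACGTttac
FOSB, chr19:45467882-45467941, plus strand: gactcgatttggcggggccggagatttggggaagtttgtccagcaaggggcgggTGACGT
FOSL2, chr2:28392744-28392803, plus strand: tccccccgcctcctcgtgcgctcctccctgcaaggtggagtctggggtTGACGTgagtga

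TGACGT began 64 bases before the RefSeq start in FOS, 60 in FOSB and 66 in FOSL2, on the gene's own strand each time. The FOSL2 stretch lies inside the measured FOSL2 row, which begins at 28392448. Its RefSeq start is therefore downstream of the start of that row, whose own upstream bases were not searched as a promoter. On either strand it was found in 7.98% of all 35116 RefSeq promoters of the same 300-base length. A match is a description of letters and not a sign that a factor binds there. The JUND and JUN stretches are shown because they hold the full-length forms. In the 130 bases of JUND, capitals mark TGACGTCA and, further on, TGACGT read from the other strand. In the 30 bases of JUN, capitals mark TGACATCA, the variant known from the JUN promoter.
JUND, chr19:18281703-18281832, minus strand: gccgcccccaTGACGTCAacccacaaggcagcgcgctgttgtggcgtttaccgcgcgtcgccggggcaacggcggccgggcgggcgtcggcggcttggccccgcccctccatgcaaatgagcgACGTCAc
JUN, chr1:58784096-58784125, minus strand: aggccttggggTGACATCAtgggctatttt

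TGACGTCA began 200 bases before the JUND start and was held by 1.85% of all promoters. TGACATCA began 67 bases before the JUN start and was held by 2.61%. TGACTCA was found in FOSL2 alone among the 6 members with a promoter, 4 bases after its RefSeq start and so also inside the measured row. It was in 4.95% of all promoters. None of these 3 sequences was found in the JUNB window. TATAAA began 31 bases before the start in JUNB, 33 in FOS and 30 in FOSB, and was held by 11.5% of all promoters. A CArG box holds the letters that serum response factor is known to bind. It was in none of the 6 windows and in 1.29% of all promoters. Bases further upstream or downstream were not searched, so a CArG box outside the windows would have been missed.

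The 6 libraries held 18400000 to 35800000 read pairs, as inferred from the ratio of coverage to FPKM. MEN1 itself, which checks the labels, stood at 6.29, 6.44 and 6.88 TPM in the knockdown and at 41.2, 39.6 and 37.1 TPM in the controls. All 10 erythroid markers were present, and their summed TPM was 77230 to 85190 in the knockdown and 45980 to 50060 in the controls. Of the other marker lists, myeloid genes summed to 0.944 to 1.95 against 2.27 to 2.77 TPM, with 1 of 8 reaching 1 TPM. Megakaryocyte genes summed to 17.1 to 21.9 against 32.0 to 36.8 TPM, nearly all of it ITGA2B, with PF4 and PPBP listed at 0 throughout. Mast cell and basophil genes summed to 725 to 885 against 1037 to 1307 TPM, nearly all of it the tryptases TPSAB1 and TPSB2. Lymphoid genes summed to 3.97 to 5.83 against 1.11 to 1.28 TPM, with 1 of 6 (CD3D) reaching 1 TPM and MS4A1 listed at 0. Stromal and endothelial genes summed to 0.128 to 0.277 against 0.106 to 4.66 TPM, with 2 of 6 reaching 1 TPM, in control replicate 2 only, and CDH5 listed at 0. The part of these shifts in the changes below was not tested, and in bulk RNA fewer cells of a type and less RNA per cell cannot be told apart.

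In the knockdown the FOS-type transcripts changed in composition: FOS, FOSB and FOSL2 rose and FOSL1 fell. JUN, JUNB and JUND, the partners that every FOS protein needs, did not pass the test, although JUND was at 121 ± 18.9 TPM against 78.2 ± 26.9 TPM (SD, n = 3 each). Thus 4 of 7 tested members were called, 3 higher and 1 lower, by limma on log2(TPM + 1) with a Benjamini-Hochberg adjusted p under 0.05. Over all genes tested the same rule called 53.6%, with 22.1% higher and 31.5% lower, so the share of members called (57.1%) is near the background. The median log2 fold change of the 7 was 0.58, against -0.07 over all genes tested. Without the filter on low values, 2 members were called, FOSL1 and FOSL2.

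**Figure D1:**
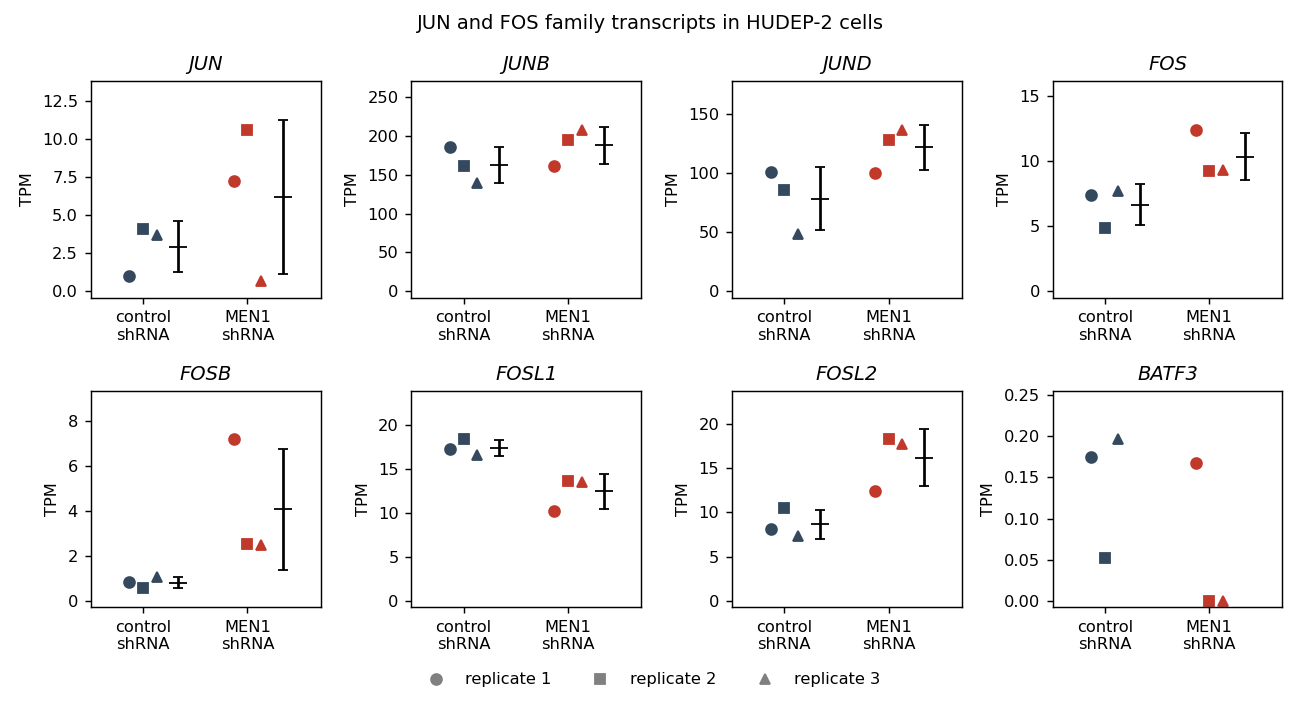
TPM of the 8 genes (y axes, linear, each with its own scale) in control shRNA libraries (dark) and MEN1 shRNA libraries (red), with marker shapes for replicates 1 to 3. Black bars are the mean ± SD of 3 libraries, left out for BATF3, which is listed at 0 in 2 of them. FOS, FOSB, FOSL1 and FOSL2 are separated by group, and JUN, JUNB and JUND overlap.

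In the control cells the order of levels was JUNB, JUND, FOSL1, FOSL2, FOS, JUN, FOSB and BATF3. JUNB at 163 ± 23.4 TPM and JUND made up 86.5% ± 2.71 of the summed TPM of the 8 genes. Neighbours in that order overlapped in their ranges for FOSL2 and FOS, and for JUN and FOSB, and the other neighbours did not overlap. In the knockdown, JUNB and JUND again led, with 86.1% ± 2.39 of the sum, but FOSL2 stood above FOSL1. There the ranges of FOSL2 and FOSL1, of FOSL1 and FOS, of FOS and JUN, and of JUN and FOSB overlapped.

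JUND (ENSG00000130522, chromosome 19, 18279694 to 18281622, minus strand) is the family member that menin binds. In knockdown replicates 1, 2 and 3 its TPM was 100.1, 127 and 136.5. The control replicates, in the same order, were at 100.8, 85.4 and 48.4. Knockdown replicate 1 lay just under control replicate 1, so the groups overlapped, and control replicate 3 was the lowest of all 6. The log2 fold change was 0.68 (95% interval 0.08 to 1.27, SE 0.255, adjusted p 0.0554 in limma), and the 2-sided exact permutation p was 0.2, where 0.1 is the smallest that 3 against 3 libraries can give. The call changed with the scaling and with the library set. It passed under median-of-ratios scaling (0.77, adjusted p 0.0391), after globin and mitochondrial genes were left out of the TPM total (0.75, adjusted p 0.0386) and without control replicate 1 (0.89, adjusted p 0.0235). It was 0.37 without control replicate 3 (adjusted p 0.0734), and the lowest and highest adjusted p of any alternative were 0.0156 and 0.188.

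JUND is also extreme in base composition. Its longest GENCODE v29 transcript is 69.7% G and C, above 99.6% of tested genes with a value, and JUNB follows at 64.9%. The 1385 tested genes richest in G and C had median deviations from their means of -0.06, -0.05 and -0.01 on the log2 scale in the knockdown libraries and 0.06, 0.08 and 0.03 in the controls. Over all genes tested the medians were close to these, at -0.04, -0.04 and -0.02 in the knockdown libraries and 0.01, 0.07 and 0.04 in the controls. With the trend of GC content and length removed, an alternative chosen after the data were seen, the log2 fold change of JUND was 0.78 (adjusted p 0.0156). The corrected log2 levels were then 6.78, 7.05 and 7.10 in the knockdown and 6.54, 6.34 and 5.69 in the controls, with no overlap between the groups. The same correction moved FOS from 0.58 to 0.68 and FOSL1 from -0.46 to -0.37. It moved the median over all genes tested from -0.07 to -0.008, so the shift was not particular to JUND.

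JUNB (ENSG00000171223, chromosome 19, 12791486 to 12793315, plus strand) encodes a weaker activator than JUN that can oppose it, and it was the most abundant member in every library. Its TPM was 162, 194 and 208.5 in the knockdown and 187, 161 and 140 in the controls. The values interleave, and the log2 fold change of 0.21 (95% interval -0.08 to 0.51, adjusted p 0.194 in limma) did not pass in any of the 19 alternatives run. It was quantified as 1 transcript in all 6 libraries, with 2695 to 4775 read pairs behind each value. The HOOK2 row spans JUNB on the other strand at 8.41 to 9.90 TPM in the knockdown and 9.23 to 10.95 TPM in the controls.

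Because JUND and JUNB lie close in level, their ratio within a library was compared. JUND reached 0.618, 0.655 and 0.655 of the JUNB TPM in the knockdown, and 0.540, 0.530 and 0.346 in the controls. The groups did not overlap, and the control mean of 0.472 ± 0.109 rested in part on the low JUND value of control replicate 3. As a share of all 8 genes, JUND made up 33.7% ± 1.51 in the knockdown and 27.6% ± 5.29 in the controls, and JUNB 52.4% ± 1.05 and 58.9% ± 2.97. These shares are descriptions without a test.

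JUN (ENSG00000177606, chromosome 1, 58776845 to 58784048, minus strand) encodes the founding member, the main activating partner of FOS and a substrate of the JNK kinases. Knockdown replicates 1, 2 and 3 had 7.27, 10.6 and 0.655 TPM. Control replicates had 1.02, 4.12 and 3.66 TPM in that order. Knockdown replicates 1 and 2 were the highest of the 6 and replicate 3 the lowest. The log2 fold change of 0.57 had a 95% interval from -1.09 to 2.24 (adjusted p 0.529 in limma). Without knockdown replicate 3 it was 1.43 (adjusted p 0.0271), without replicate 2 of that group it was 0.02, without replicate 1 it was 0.27, and without control replicate 1 it was 0.15. The lowest and highest adjusted p of any alternative were 0.0271 and 0.982. Coverage of the row ran from 1.52 to 35.7 reads per base, and the row differs at both ends from the single v29 transcript of JUN, 58780788 to 58784327. Its ratio of coverage to FPKM was 0.899 of the library's in all 6 libraries, while that of FOS ran from 0.364 to 0.476. A ratio below 1 that does not vary leaves unsettled whether JUN was quantified as 1 transcript. Whether reads were divided among transcripts there is not seen in gene-level values, and any part of this in the spread of JUN was not tested.

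FOS (ENSG00000170345, chromosome 14, 75278826 to 75282230, plus strand) encodes the classic immediate early partner of JUN. Its TPM was 12.4, 9.25 and 9.32 in the knockdown and 7.39, 4.81 and 7.71 in the controls. The lowest knockdown value lay above the highest control value. Of all genes tested, 61.8% had groups without overlap, 25.8% higher and 35.9% lower in the knockdown, and 4 of 7 members did, 3 higher and 1 lower. FOS rose by a log2 fold change of 0.58 (SE 0.185, adjusted p 0.0307 in limma), with an exact permutation p of 0.1. The call was lost without knockdown replicate 1 (0.45, adjusted p 0.0906), without control replicate 2 (0.39, adjusted p 0.0728) and without the filter on low values (adjusted p 0.105). Its adjusted p ranged from 0.0129 to 0.105 over all alternatives.

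FOSB (ENSG00000125740, chromosome 19, 45467995 to 45475179, plus strand), a close relative of FOS, showed the highest fold change of the family. Its TPM was 7.18, 2.51 and 2.49 in the knockdown and 0.829, 0.562 and 1.05 in the controls. Knockdown replicate 1 stood well above the other two of its group, and the lowest of that group was above every control. FOSB rose by a log2 fold change of 1.37 (SE 0.334, adjusted p 0.0102 in limma), and by 0.96 without knockdown replicate 1 (adjusted p 0.00541). It did not pass without the filter on low values (adjusted p 0.0553), the highest adjusted p over its alternatives. It reached 1 TPM in 3 knockdown libraries and 1 control library, so it passed the filter mainly through the group in which it was high. ERCC1, a DNA repair gene on the other strand, overlaps FOSB. Its TPM was 68.9 to 75.0 in the knockdown and 70.8 to 87.6 in the controls (log2 fold change -0.15, adjusted p 0.194).

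FOSL2 (ENSG00000075426, chromosome 2, 28392448 to 28417317, plus strand) encodes FRA2, a FOS-related protein without the strong activation domain of FOS. Its TPM was 12.4, 18.25 and 17.8 in the knockdown and 8.09, 10.5 and 7.31 in the controls. The groups did not overlap, and knockdown replicate 1 was the nearest to the controls. FOSL2 rose from 8.63 ± 1.65 to 16.2 ± 3.22 TPM, a rise to 1.87 times the mean of the controls. On the log2 scale the change was 0.83 (limma adjusted p 0.00530, SE 0.176). It passed under all 19 alternatives, with log2 fold changes from 0.73 to 0.995.

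FOSL1 (ENSG00000175592, chromosome 11, 65892049 to 65900573, minus strand) encodes FRA1, a second FOS-related protein that lacks such a domain, and it moved the other way. Its TPM was 10.2, 13.6 and 13.5 in the knockdown and 17.3, 18.4 and 16.6 in the controls. Every knockdown library was below every control. FOSL1 fell from a control mean of 17.4 ± 0.919 TPM to 12.5 ± 1.95 TPM. On the log2 scale the difference was -0.46 (limma adjusted p 0.0139, SE 0.121). It stayed past the threshold in 18 of 19 alternatives. The exception was quantile normalization, at -0.33 (adjusted p 0.0536), and the adjusted p ranged from 0.0116 to 0.0536.

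**Figure D2:**
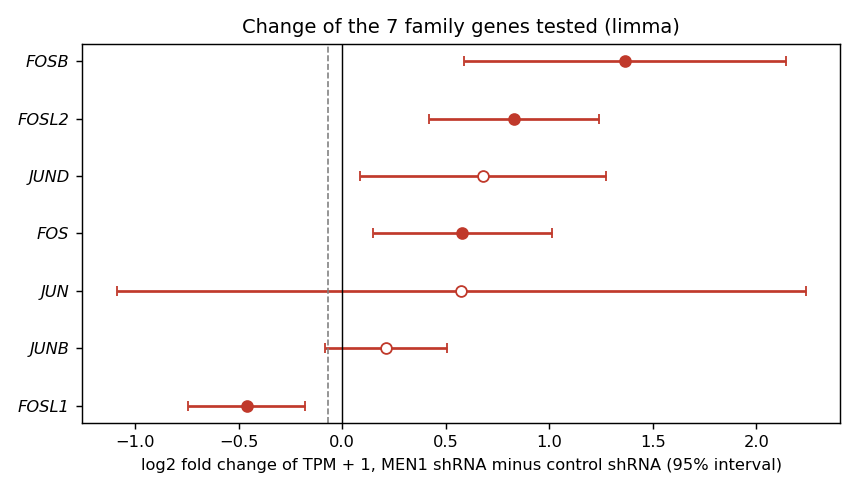
Log2 fold change of TPM + 1 (x axis, MEN1 shRNA minus control shRNA) of the 7 tested genes with 95% limma intervals, where filled points have an adjusted p under 0.05. The solid line is 0 and the dashed line is the median of all tested genes, -0.07. FOSB, FOSL2 and FOS lie to the right, FOSL1 to the left, and the JUN interval is the widest.

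The opposite moves of FOSL1 and FOSL2 exchanged their order in every library. FOSL2 reached 1.22, 1.34 and 1.315 of the FOSL1 TPM in the knockdown, and 0.469, 0.570 and 0.442 in the controls. FOSL1 made up 51.95% ± 1.54 of the TPM of the 4 FOS-type genes in the controls and 28.9% ± 4.13 in the knockdown. FOSB went from 2.44% ± 0.783 to 9.51% ± 6.48, with 17.0% in knockdown replicate 1 and 5.74% and 5.79% in the others. The shares of FOSL2 (25.7% ± 4.32 in the controls and 37.5% ± 6.96 in the knockdown) and of FOS (19.9% ± 5.12 and 24.1% ± 4.61) overlapped between the groups. Meanwhile the 4 FOS-type genes together summed to 42.2, 43.6 and 43.1 TPM in the knockdown and to 33.6, 34.2 and 32.6 TPM in the controls. Their sum varied less within a group than any of the 4 genes did relative to its mean, with group values of 42.98 ± 0.718 and 33.5 ± 0.807 TPM. The 3 JUN-type genes summed to 316 ± 40.7 and 244 ± 48.6 TPM, with overlap, and the ratio of JUN-type to FOS-type TPM was 7.34 ± 0.854 and 7.27 ± 1.35.

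**Figure D3:**
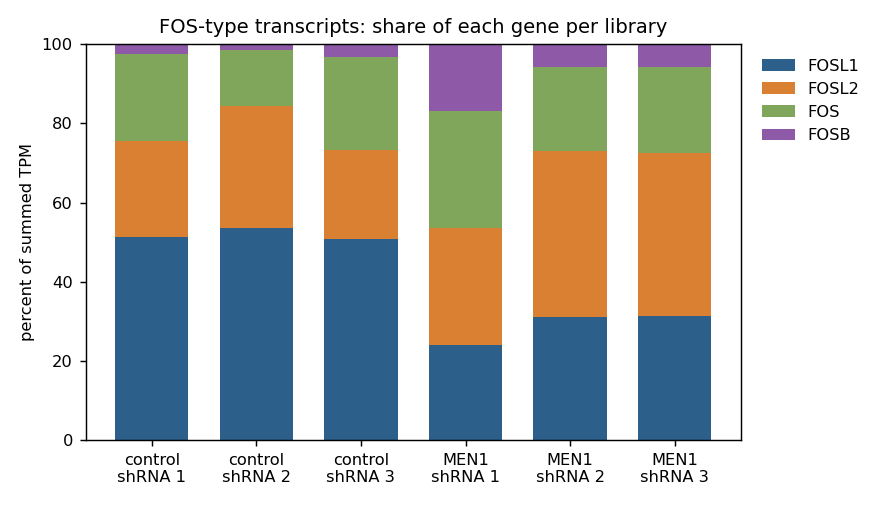
Share of each FOS-type gene in the summed TPM of FOS, FOSB, FOSL1 and FOSL2 (y axis, percent from 0 to 100), one stacked bar per library. FOSL1 (bottom, blue) takes 50.7% to 53.7% in the 3 control bars and 24.2% to 31.4% in the 3 MEN1 shRNA bars.

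BATF3 (ENSG00000123685, chromosome 1, 212686417 to 212699840, minus strand) encodes a small zipper protein that pairs with JUN and is known for its part in dendritic cells. It was at 0.167 TPM in knockdown replicate 1 and is listed at 0 in replicates 2 and 3, against 0.174, 0.0524 and 0.196 TPM in the controls. No library came near 1 TPM, so BATF3 was not tested, and at this depth a difference could not be read.

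**Figure D4:**
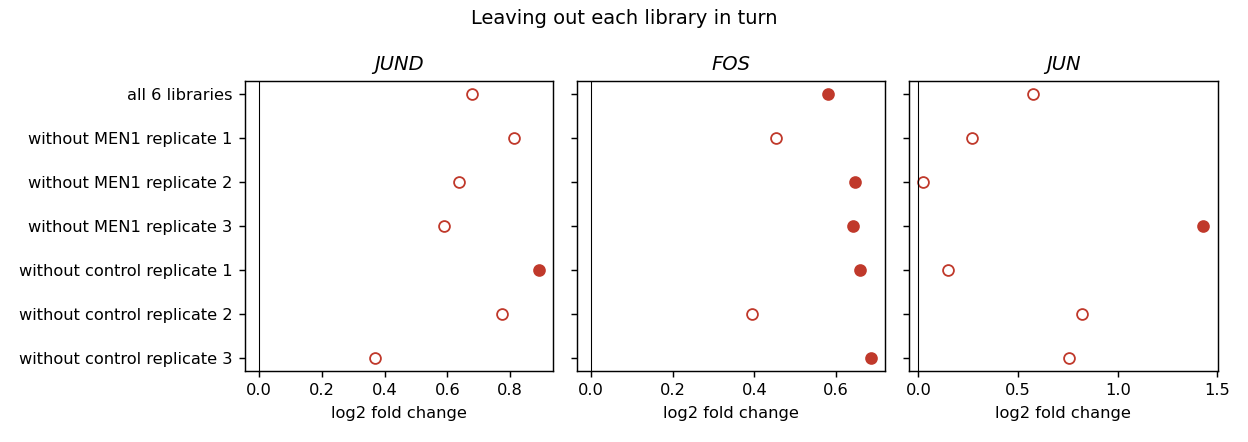
Log2 fold change (x axis, MEN1 shRNA minus control shRNA) of JUND, FOS and JUN with all 6 libraries and with each library left out in turn (rows), where filled points have an adjusted p under 0.05 in limma. JUND runs from 0.37 to 0.89, FOS from 0.39 to 0.69 and JUN from 0.02 to 1.43.

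Other zipper proteins can join the same dimers. Of 10 such genes listed, 6 were tested, 3 were higher and 0 lower, at a median log2 fold change of 0.29. Counts in this and the following lists are to be read against the 22.1% of all genes tested that were higher and the 31.5% that were lower. ATF3, a stress-induced repressor that pairs with JUN, rose from 4.81, 3.16 and 3.35 TPM to 8.22, 19.95 and 13.4 TPM (1.58 on the log2 scale, adjusted p 0.00256). CREM, a cyclic AMP-responsive factor that binds TGACGTCA, rose from 7.26 to 22.9 TPM on average (1.53, adjusted p 5.8e-05). ATF4, the effector of the integrated stress response, rose by 0.50 on the log2 scale. ATF2 and ATF7, the partners through which JUN reaches TGACGTCA, were at 0.08 and 0.05 and did not pass. BATF2, JDP2 and CREB5 stayed under 0.1 TPM in every library.

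The kinases that lead to JUN and FOS were mixed. Of 14 tested, 2 were higher and 5 lower, at a median of -0.03. MAPK8 and MAPK9, which encode the JNK kinases that phosphorylate JUN, fell by 0.41 and 0.39 on the log2 scale, from 14.2 and 29.6 TPM to 10.5 and 22.4 TPM. MAP3K1 and MAP3K5, which act upstream of JNK, fell by 0.78 and 1.15. MAP2K2, an ERK pathway kinase, rose by a log2 fold change of 0.65 and MAPK14, which encodes p38, by 0.39. These 6 changes passed under all alternatives run, with adjusted p-values of 0.0263 or less. RPS6KA1, an ERK-activated kinase, fell by 0.17 and passed in 8 of 19 alternatives.

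All 8 tested members of the dual-specificity phosphatases, which switch MAP kinases off, were called, 6 higher and 2 lower, where 53.6% of all genes tested were called, 22.1% higher and 31.5% lower. The count was 6 to 8 with 1 library left out and 3 at a mean TPM of 5 or more, a filter that leaves fewer of them to test. The highest rise was that of DUSP4, from 0.0719, 0.129 and 0.0570 TPM to 3.24, 4.03 and 4.28 TPM (2.15 on the log2 scale, adjusted p 4.8e-05). DUSP5 (0.94), DUSP16 (0.87) and DUSP1 (0.42) also rose, while DUSP7 (-0.96) and DUSP10 (-0.74) fell. DUSP2 and DUSP6 were called as higher (0.52 and 0.32) but passed in only 2 and 1 of the 6 fits with a library left out. DUSP4 reached 1 TPM only in the knockdown libraries, and it passed in all 18 alternatives that gave it a value, the one without the filter on low values included.

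The serum response factor and its cofactors drive FOS and FOSB transcription after a stimulus. Of the 6 genes, 1 was higher and 4 were lower, at a median of -0.36. ELK3 fell by 1.15 on the log2 scale and MRTFA by 0.50, under all alternatives. ELK4 fell by 0.40 and passed in 13 of 19 alternatives. SRF itself fell by 0.32 (adjusted p 0.0131) and did not pass in 3 of 19 alternatives, with an adjusted p from 0.00748 to 0.0880. ELK1, an ERK-responsive cofactor, rose by 0.63 (adjusted p 0.0134) but did not pass without the filter on low values (adjusted p 0.0627). Among 4 genes that control the stability of JUN and FOS proteins, COP1, a ubiquitin ligase, fell from 31.7 to 15.1 TPM (-1.03 on the log2 scale, adjusted p 0.000398). ITCH, a ubiquitin ligase for JUN and JUNB, rose by 0.37 (adjusted p 0.0177) and did not pass without knockdown replicate 2 or without control replicate 3, among 4 of 19 alternatives. FBXW7 and DET1 did not pass.

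Other immediate early genes were called in both directions, with 7 of 14 higher and 2 lower at a median of 0.46. Their 64.3% called is near the 53.6% over all genes tested. The orphan nuclear receptors NR4A2 and NR4A1 rose by log2 fold changes of 2.63 and 1.79, and BTG2 by 2.10. KLF6, at 0.90, was called too but passed in 11 of 19 alternatives. MYC fell by 1.65 and EGR2 by 1.24. EGR1, often induced together with FOS, was at 109, 140 and 142 TPM against 110, 109 and 82.4 TPM and did not pass (0.37, adjusted p 0.0589), although it did in 5 of 19 alternatives. Knockdown replicate 1, the highest library for FOS and FOSB, was the lowest of its group for NR4A1, NR4A2, BTG2 and EGR1. PPP1R15A was at 308, 342 and 111 TPM in knockdown replicates 1, 2 and 3 and at 189, 90.0 and 177 TPM in the controls. As for JUN, its replicate 3 was the lowest of the knockdown group, and its log2 fold change of 0.65 did not pass (adjusted p 0.266). Without knockdown replicate 3 it was 1.16 (adjusted p 0.0192).

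Of 15 textbook AP-1 target genes, 9 were tested, and 4 were higher and 4 lower at a median of 0.05. TIMP1, a metalloprotease inhibitor, rose from 539 ± 32.9 to 1223 ± 172 TPM (1.17 on the log2 scale, adjusted p 0.000110). PLAUR, the urokinase receptor, rose from 7.35 to 19.4 TPM (1.29). VIM, which encodes the filament protein vimentin, fell by 0.79, the cyclin CCND1 by 0.39 and the adhesion receptor CD44 by 0.36. CXCL8 and FTH1 were also called, at -0.51 and 0.31, and passed in 14 of 19 and 11 of 19 alternatives. The metalloprotease genes MMP1, MMP3 and MMP9 and the cytokine IL6 were at or near 0 in all libraries.

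**Figure D5:**
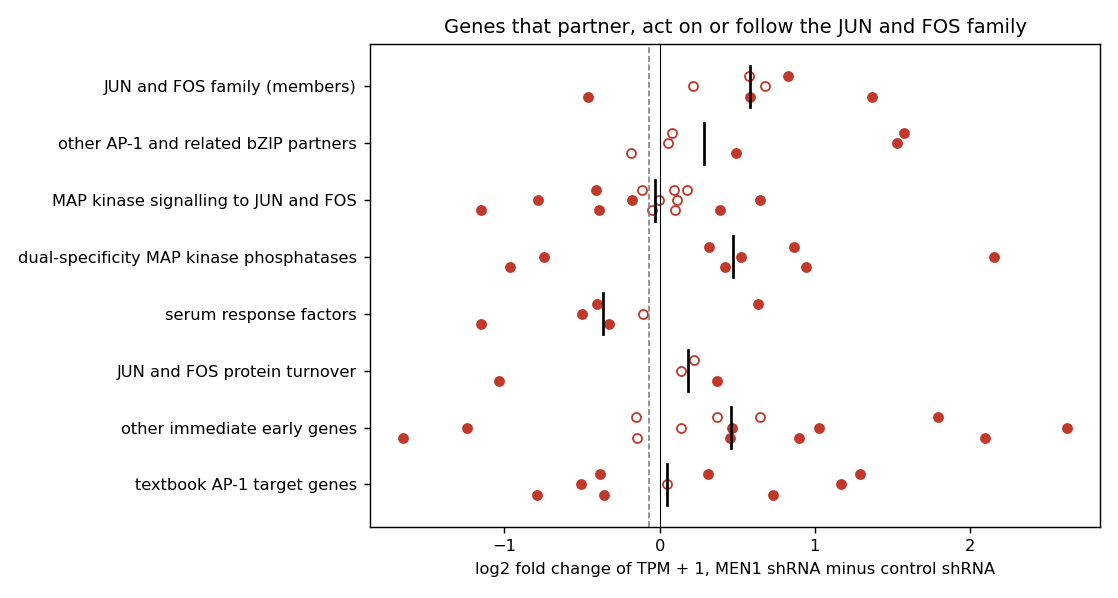
Log2 fold change of TPM + 1 (x axis, MEN1 shRNA minus control shRNA) of each tested gene in the family and in 7 related lists (rows), where filled points have an adjusted p under 0.05 and black bars are list medians. The solid line is 0 and the dashed line the median of all tested genes, -0.07. Most rows hold points on both sides of 0, and the bZIP partners hold no filled point below it.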

How the data were processed

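Each library has a deposited table with the coverage, FPKM and TPM of every gene. The submitters' processing notes name FastQC, Trimmomatic, STAR 2.7.1a, Picard 2.20.4, StringTie 2.0.4 and hg38. Libraries were directional, per the labels' protocols, and whether counting used strand is not given in the sources used here. The deposited TPM, whose scaling the authors chose, sums to 1000000 per library. The deposited FPKM is named so per the file headers, and is a fixed multiple of TPM within a library. The deposited coverage signal is mean reads per base, not scaled for depth. Values just below 0 in control replicate 2 (2 genes) were set to 0.

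Genes with at least 1 TPM in at least 3 of 6 libraries were tested on log2(TPM + 1), which understates changes of low genes, with limma 3.58.1 in R 4.3.3 (mean-variance trend, 2-sided, Benjamini-Hochberg over all genes tested, threshold 0.05). All adjusted p-values are from limma. Read pairs were inferred from coverage over FPKM and a modal 302 bases per pair. In simulated data on 14294 genes, of which 200 were changed, 70% of changes of 1 and 25% of changes of 0.5 (log2) were recovered. In the real data 53.6% of the genes tested were called, so these rates do not carry over to them. GC content and length came from GENCODE v29. Figures were drawn with matplotlib 3.10.9, and tables and permutation tests were made with SciPy 1.17.1, NumPy 2.4.6 and pandas 2.3.3 under Python 3.11.15. Members, lists and tests were chosen with earlier results of these data known. Named are all members, MEN1, overlapping rows, at most 5 called genes per list by size of change plus genes whose role is stated, and the 2 genes most correlated with each member. DUSP1, DUSP2, DUSP6, KLF6, EGR1 and PPP1R15A were named after their values were seen. Alternatives covered pseudocount, filter, unit, scaling, replicate block, variance trend, threshold, GC and length, coverage and each library left out. The threshold was varied for the count over all genes only. Values of some listed genes are not reported here.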

Additional observations from a re-analysis of the deposited data

How the results depend on the processing

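The direction of all 7 tested members and of MEN1 was kept in every alternative run. Of their values, 139 kept their side of the threshold, 6 newly passed and 5 no longer did. A stricter threshold of 0.01 is not among these, and it was applied only to the count over all genes, which was then 5527. In the main limma fit FOSL2 (adjusted p 0.0053) lies below 0.01. FOSB (adjusted p 0.0102), FOSL1 (0.0139) and FOS (0.0307) lie above it. JUND passed at 0.77 with median-of-ratios scaling, 0.75 without globin and mitochondrial genes, and 0.78 once the trend of GC content and length was taken out, with or without the replicate block. With 1 library left out JUND ran from 0.37 to 0.89, JUN from 0.0242 to 1.43 and FOS from 0.39 to 0.69. Without the filter on low values FOS (0.58) and FOSB (1.37) no longer passed, with more genes entering the adjustment, and quantile normalization left FOSL1 at -0.33; the cause was not tested. JUN and FOSB have no value at a mean TPM of 5 or more.

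Calls over all genes ran from 6577 to 7542 with 1 library left out and came to 7657 in full. Among the lists, the members called numbered 2 without the filter, the phosphatases 3 at a mean TPM of 5 or more, the serum response genes 3 without the filter or with quantile normalization, and the turnover genes 1 without the filter or with coverage and 1 to 2 with 1 library left out. Replicate numbers are shared by the groups, but deviations of same-numbered libraries correlated at 0.017, -0.027 and -0.012, and 1 of 3 MEN1 shRNA libraries correlated best with its own number. With the replicate block 7012 genes passed, and no member changed its call in that fit. Percent shares within a library cannot move with FPKM or with scaling, by construction. Depth limits BATF3 and FOSB in the controls, at coverages down to 0 and 1.26 reads per base.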

Other observations

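Rows next to the members were read as well. CCDC85B, on the other strand 413 bases beyond the FOSL1 row, had 18.8, 18.1 and 22.1 TPM in the knockdown libraries. Its control values were 57.3, 43.5 and 26.4 TPM (log2 fold change -1.01, adjusted p 0.0105 in limma). It fell as FOSL1 did, and control replicate 3 was the control nearest to the knockdown libraries. LINC01135, a noncoding RNA transcribed away from the JUN start, had 1.03, 0.449 and 0.382 TPM in the knockdown libraries. Control libraries had 0.219, 0.0395 and 0.117 TPM, and the gene was too low to be tested. Its groups did not overlap, whereas those of JUN did. FOSL2-AS1, antisense to FOSL2, stayed under 0.1 TPM in all libraries.

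The genes most like each member in log2(TPM + 1) over the 6 libraries were found among 9868 named genes with a mean TPM of 5 or more. They were BORCS7 and BEX4 for FOSL2 (Pearson r 0.9952 and 0.9933), with 362 genes at an r of 0.95 or more. For FOSL1 they were LMBR1L and DNAJC25 (0.9978 and 0.9947), for FOSB SEC22A and HAX1 (0.9929 and 0.9902), and for FOS MAPKAPK5 and NDUFS8 (0.9791 and 0.9764). For JUND they were MED16 and TPGS1 (0.9897 and 0.9881), for JUNB ACBD5 and ADAT3 (0.9977 and 0.9965), and for JUN MATR3 and PRMT3 (0.9862 and 0.9780). JUN had 6 genes at an r of 0.95 or more. These are descriptions over 6 libraries that share depth and composition.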
